A study of Mus musculus with 4 samples.

Results

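A set of 10 genes of the pancreatic acinar cell were followed through 4 single-cell RNA libraries of mouse pancreatic tumours. They were Prss2, Cpa1, Cela1, Cela2a, Sycn, Amy2a5, Klk1, Clps, Ctrb1 and Pnlip, chosen by symbol, and all 10 symbols were found among the 32285 genes listed. In all, 3 kinds of barcode were set side by side in each library: droplets called as cells, barcodes with at most 100 unique molecular identifiers (UMIs), taken as free RNA, and barcodes in which acinar transcripts made up a large share of the RNA.

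The tumours were orthotopic, grown from KPC pancreatic cancer cell lines in C57BL/6J mice, given no treatment and taken at day 13. Each of the lines KPC-4545 and KPC-3403 gave 1 enriched library, aimed at fibroblasts by sorting away cells positive for CD45, CD31, EPCAM or TER119, and 1 whole library, of the unsorted tumour suspension. Thus there were 2 enriched and 2 whole libraries, with 2 libraries of each line and no second library of any line and preparation. The labels do not say whether the libraries came from separate mice, and a p-value here covers the scatter among 4 libraries, some or all of which may be technical. The fits that compare preparations or lines have 1 residual degree of freedom. Their scatter is how the difference between preparations varies between the 2 lines, moderated by the other genes. It is not scatter between replicate libraries.

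Acinar cells make the exocrine secretion of the pancreas, a mixture of proenzymes packed into zymogen granules and released into the ducts. Their enzyme mRNAs are among the most abundant transcripts of the normal pancreas, and such mRNA can leave broken cells and enter a cell suspension as free RNA. Transcription there depends on the PTF1 complex, built on Ptf1a and Rbpjl, which binds an E-box paired with a TC-box.

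RefSeq promoter windows, from 250 bases before to 50 after the start in build GRCm38.p6, were matched for 9 of the 10 genes, all but Clps. An E-box written CACCTG, on either strand, was found in 4 of the 9, against 20.2% of 32851 promoters. A TC-box written TTTCCC, on either strand, was found in 6 of the 9, against 25.2% of all promoters, and these letters do not overlap those of the E-box. Prss2, Cela1 and Cela2a held both, against 4.86% of all promoters, and their 250 upstream bases are shown for that reason, 5′ to 3′ on the gene's strand, with both motifs in capitals. Such matches are letters in a window and do not show that a factor binds there.
Prss2 (chr6:41521526-41521775, plus strand): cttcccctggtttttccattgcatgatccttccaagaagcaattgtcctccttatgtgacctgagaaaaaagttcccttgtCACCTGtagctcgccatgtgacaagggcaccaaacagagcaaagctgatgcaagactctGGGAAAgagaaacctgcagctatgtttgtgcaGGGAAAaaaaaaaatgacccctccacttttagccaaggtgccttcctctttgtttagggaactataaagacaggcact
Cela1 (chr15:100687921-100688170, minus strand): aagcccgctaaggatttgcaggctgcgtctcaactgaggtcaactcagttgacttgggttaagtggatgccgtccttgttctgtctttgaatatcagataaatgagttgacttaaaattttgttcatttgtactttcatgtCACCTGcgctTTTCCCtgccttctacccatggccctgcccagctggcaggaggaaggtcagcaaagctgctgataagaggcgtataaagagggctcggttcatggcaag
Cela2a (chr4:141826006-141826255, minus strand): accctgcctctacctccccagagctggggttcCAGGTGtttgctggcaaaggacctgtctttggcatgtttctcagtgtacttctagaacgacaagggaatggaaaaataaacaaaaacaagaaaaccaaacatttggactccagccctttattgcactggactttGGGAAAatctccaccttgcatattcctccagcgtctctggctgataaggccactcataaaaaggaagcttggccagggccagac
In the Cela1 window the E-box began 109 bases and the TC-box 99 bases before the start, on the same strand.

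The enriched libraries held 47207893 (KPC-4545) and 51450719 (KPC-3403) UMIs, and the whole libraries 5746733 (KPC-4545) and 13990046 (KPC-3403). Called cells numbered 1647 and 2476 in the enriched libraries of KPC-4545 and KPC-3403, against 527 and 1102 in the whole ones. By markers, 26 of 1647 and 303 of 2476 called cells of the enriched KPC-4545 and KPC-3403 libraries were named fibroblast-like, 91 and 658 epithelial or tumour-like, and 1478 and 1088 were left unnamed. The fibroblast count depends on the naming rule, since 2 unnamed clusters with 811 and 219 cells of enriched KPC-3403 scored nearest to fibroblasts. With finer clustering (resolution 2), clusters of 386, 181, 106 and 43 cells of that library were named fibroblast-like. Free RNA amounted to 760120 and 4017146 UMIs in the enriched libraries of KPC-4545 and KPC-3403, against 957262 and 2479984 in the whole libraries.

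Libraries shared barcodes, and this touches the enzyme counts directly. Among called cells, 134 barcodes of the enriched KPC-4545 library were also called in the whole KPC-3403 library, 127 of them with more UMIs in the whole library, and the enriched copy held a median of 2.57% of the whole copy's UMIs. The other pairs of libraries shared 6 to 8 called barcodes each. In all, 138 of 1647 called cells of the enriched KPC-4545 library held more UMIs under the same barcode in another library, among them 84 of its 91 epithelial or tumour-like cells. The same was true of 11 of 2476 called cells in enriched KPC-3403, 1 of 527 in whole KPC-4545 and 14 of 1102 in whole KPC-3403. Results are therefore given with such barcodes and, as an alternative chosen after seeing the data, without them.

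The enzyme genes were a prominent part of free RNA in the whole tumours and a trace in the sorted suspensions. The 10 genes together made up 0.0864% of free RNA UMIs in the enriched KPC-4545 library (95% exact binomial interval 0.0800 to 0.0933) and 0.0114% in the enriched KPC-3403 library (0.0103 to 0.0124), against 0.854% (0.836 to 0.873) in whole KPC-4545 and 0.733% (0.722 to 0.744) in whole KPC-3403. All such intervals cover counting error only. With barcodes that held more UMIs elsewhere left out, the shares were 0.00372% and 0.00598% in the enriched libraries of KPC-4545 and KPC-3403, against 1.07% and 0.788% in the whole libraries. The 2 enriched libraries thus changed order, and the gap between enriched and whole libraries of KPC-4545 widened to 288-fold.

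Most of the enzyme signal in the free RNA of enriched KPC-4545 lay in shared barcodes. Of its 657 enzyme UMIs, 640 (97.4%) sat in barcodes with more UMIs in another library, although those barcodes held 40.0% of its free UMIs. Of 615 free barcodes with an enzyme UMI there, 84.2% (exact binomial interval 81.1 to 87.0) also held an enzyme UMI under the same barcode in whole KPC-3403, against 3.40% of barcodes without one. The matching share was 16.3% for whole KPC-4545, the whole tumour of its own line, and 3.25% for enriched KPC-3403. In enriched KPC-3403, 250 of 456 free enzyme UMIs (54.8%) sat in such barcodes.

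**Figure D1:**
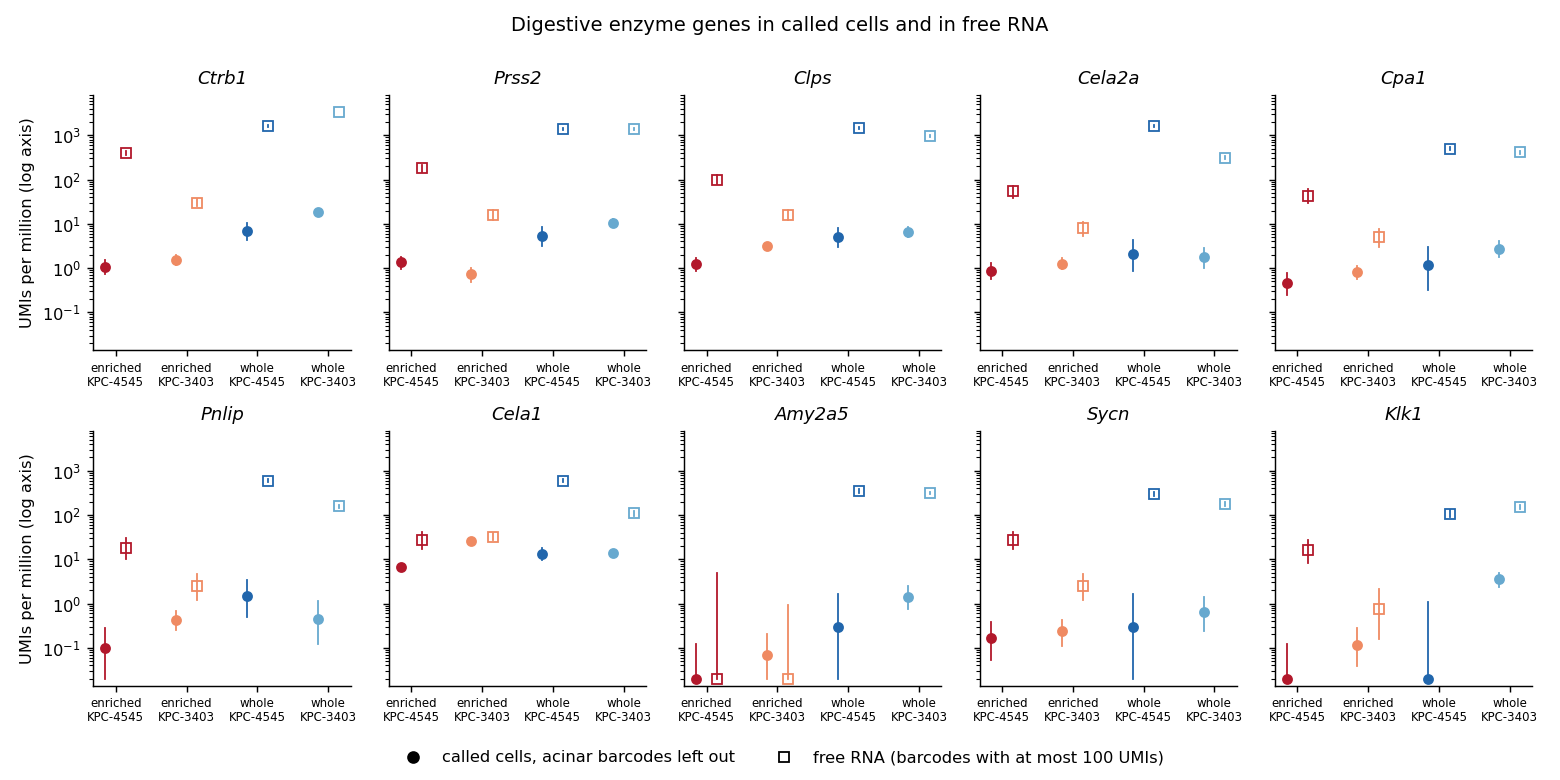
Level of each of the 10 enzyme genes, in CPM on a log axis, in called cells (filled circles, acinar barcodes left out) and free RNA (open squares) of the 4 libraries; bars are 95% exact Poisson intervals for counting error, and a level of 0 is drawn at the bottom of the axis. Ctrb1 lay at 1.08 CPM in cells and 399 in free RNA of enriched KPC-4545, whereas Cela1 lay at 26.0 in cells and 32.6 in free RNA of enriched KPC-3403.

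The serine proteases were described first. Ctrb1, which encodes chymotrypsinogen B1 (ENSMUSG00000031957, chr8:111686519-111691010, mm10), had 399 and 30.1 CPM in the free RNA of the enriched KPC-4545 and KPC-3403 libraries, against 1655 and 3360 CPM in the whole libraries. CPM scales the UMIs of a library's compartment to a common total, and each UMI stands for 1 captured transcript, so it carries no correction for length. Prss2, a trypsinogen gene (ENSMUSG00000057163, chr6:41521787-41525079), had 179 and 15.9 CPM there, against 1378 and 1389 in the whole libraries. Cela2a, an elastase gene (ENSMUSG00000058579, chr4:141814962-141826160), had 53.9 and 7.97, against 1632 and 310. For these 3 proteases both enriched libraries lay below both whole libraries.

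Cela1, the elastase 1 gene (ENSMUSG00000023031, chr15:100674421-100687921), had 27.6 and 32.6 CPM in the free RNA of enriched KPC-4545 and KPC-3403, against 600 and 110 in the whole libraries. All 21 UMIs of enriched KPC-4545 sat in barcodes with more UMIs in another library. Cela1 and Amy2a5 were the members whose level was not higher in enriched KPC-4545 than in enriched KPC-3403. Klk1, encoding tissue kallikrein (ENSMUSG00000063903, chr7:44225360-44229618), had 15.8 and 0.747 CPM in the enriched libraries, against 108 and 151 in the whole libraries.

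Among the other digestive proteins, Clps encodes colipase, the cofactor of pancreatic lipase (ENSMUSG00000024225, chr17:28558149-28560766). It had 100.0 and 16.2 CPM in the free RNA of the enriched KPC-4545 and KPC-3403 libraries, against 1432 and 954 in the whole libraries. Pnlip, pancreatic lipase itself (ENSMUSG00000046008, chr19:58652498-58681788), had 18.4 and 2.49, against 594 and 156. Both lipid-digesting genes were lower in each enriched library than in either whole library.

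Cpa1, a carboxypeptidase gene (ENSMUSG00000054446, chr6:30639218-30645363), had 43.4 and 4.98 CPM in the free RNA of enriched KPC-4545 and KPC-3403, against 501 and 413 in the whole libraries. Sycn, which encodes the zymogen granule protein syncollin (ENSMUSG00000084174, chr7:28540885-28542209), had 27.6 and 2.49, against 298 and 175. Amy2a5, a pancreatic amylase gene (ENSMUSG00000074268, chr3:113247178-113258837), had no UMI in the free RNA of either enriched library, against 344 and 313 CPM in the whole libraries. At a floor of 3 counts per library, Amy2a5 was at least 87.1-fold lower in the enriched KPC-4545 library than in its whole library, and at least 419-fold lower in enriched KPC-3403.

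Some of these counts cannot be assigned to 1 gene copy with certainty. Of windows of 60 bases in the longest coding transcript, 54.3% of those of Amy2a5 were shared with other genes, Amy2a1 to Amy2a4 above all, and all of those within its first 300 bases, the end read by 5′ libraries. The share was 24.8% for Cela2a (with Ctrc, none of it within the first 300 bases), 22.01% for Klk1 (with Klk1b genes) and 4.37% for Prss2 (with Try4, Try5, Try10 and Prss1). No shared window was found for Cpa1, Cela1, Sycn, Clps, Ctrb1 or Pnlip.

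The difference in free RNA between enriched and whole libraries was tested in a model with the line as a term (edgeR's quasi-likelihood test, Benjamini-Hochberg adjustment over 10103 genes). All 10 enzyme genes passed the filter on low counts, and 6 of them, Cpa1, Cela2a, Sycn, Amy2a5, Clps and Pnlip, were lower in the enriched libraries at an adjusted p of at most 0.05, while 1.58% of all genes tested were called lower and 0.0198% higher. Amy2a5, with no UMI in the free RNA of either enriched library, passed the filter through the whole libraries alone. It could therefore only be fitted lower, here and without the shared barcodes, and its call adds no support. Pnlip differed by a log2 change of -5.57 (SE 0.55, adjusted p = 0.0066) and Cela2a by -5.20 (SE 0.50, adjusted p = 0.0066). Clps (log2 -4.97, adjusted p = 0.021), Sycn (-4.82, 0.043) and Cpa1 (-5.03, 0.049) were nearer to the threshold in the same edgeR fit. The 4 genes that missed it were Prss2 (log2 -4.79, adjusted p = 0.147), Cela1 (-3.14, 0.170), Klk1 (-5.00, 0.244) and Ctrb1 (-4.52, 0.437). Ctrb1 had the largest standard error of the 10, 1.57.

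Without the shared barcodes, 9 of the 10 genes, all but Cela1, were called lower in enriched free RNA by edgeR, against 4.24% of 9055 genes. The enriched counts were then near the floor. Ctrb1 had 8 and 25 UMIs and Prss2 4 and 12 in the enriched KPC-4545 and KPC-3403 libraries. Members with so few UMIs there passed the filter mainly through the whole libraries, where they were high. These calls are therefore not counted as further support. DESeq2 on all barcodes called 9, all but Amy2a5, against 2.09%. In barcodes of more than 100 and fewer than 500 UMIs edgeR called 9, all but Cela1, against 0.888%. With all barcodes, none was called in a model without the line term or in free RNA of at most 10 UMIs. With 1 library left out the line term had to be dropped, so line and preparation are then not balanced. Such fits leave 1 library in a group, so the members called in them are not counted here.

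The line of the tumour was compared in the same free RNA, KPC-4545 against KPC-3403, with preparation as a term. None of 10103 genes was called in the edgeR fit (0%), so none of the 10 enzyme genes was (4.939% of all genes tested had an unadjusted p under 0.05, and DESeq2 called 4, among them Cela2a, with 0.0297% of genes called higher). The fitted log2 difference of KPC-4545 over KPC-3403 was 2.52 for Cela2a (SE 0.45) and 2.27 for Pnlip (SE 0.49), both with an adjusted p of 0.663 in the edgeR fit. Within the enriched libraries 8 of the 10 members were higher in KPC-4545 than in KPC-3403, and within the whole libraries 7 of the 10 were. The enriched count and the fitted differences include shared barcodes, which held 640 of the 657 free enzyme UMIs of enriched KPC-4545. Without them the summed enzyme share was lower in enriched KPC-4545 than in enriched KPC-3403, where Cela1 then had 116 UMIs and Ctrb1 25. In the whole libraries, Cela2a stood at 1632 CPM in KPC-4545 and 310 in KPC-3403, and Ctrb1 at 1655 and 3360. These 2 members thus ran in opposite directions between the lines, with 1 whole library of each line.

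**Figure D2:**
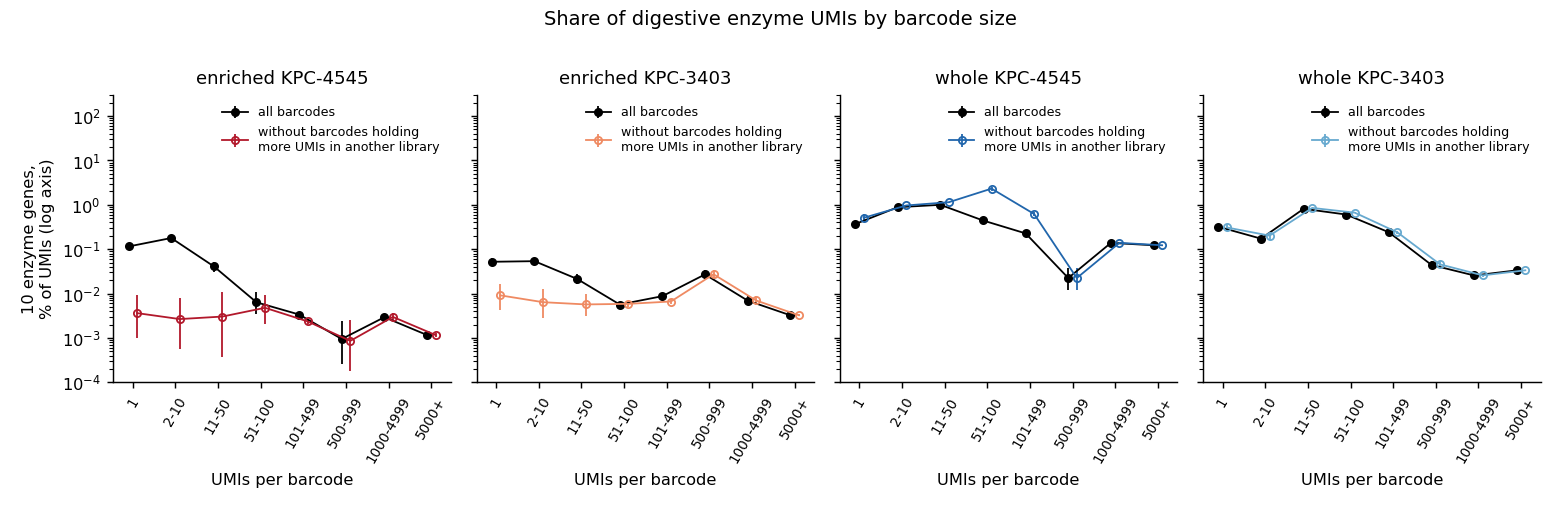
Share of all UMIs that came from the 10 enzyme genes (log axis) in barcodes of rising UMI number, for each library, with all barcodes (filled) and without barcodes that held more UMIs in another library (open); bars are 95% exact binomial intervals. In the enriched libraries the smallest barcodes lose most of their enzyme share when shared barcodes are left out, and in the whole libraries the share with all barcodes is highest at 11 to 50 UMIs, at 1.00% in KPC-4545 and 0.815% in KPC-3403.

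The enzyme share varied with the size of the barcode. In enriched KPC-4545 the enzyme share was 0.179% in barcodes of 2 to 10 UMIs and 0.00636% in those of 51 to 100 UMIs. Without shared barcodes these became 0.00266% and 0.00478%, and their intervals overlapped. In whole KPC-4545 the share was 0.885% at 2 to 10 UMIs and 0.444% at 51 to 100 UMIs, and without shared barcodes the second value was 2.32%. In whole KPC-3403 it was 0.815% at 11 to 50 UMIs, 0.240% above 100 and below 500 UMIs, and 0.0256% from 1000 to below 5000 UMIs.

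Barcodes that could be intact acinar cells were rare. With at least 500 UMIs and at least 10% of UMIs from 30 other acinar secretory genes, a rule that does not read the 10 enzyme genes, there were 0 of 3482 and 0 of 3118 such barcodes in the enriched KPC-4545 and KPC-3403 libraries, against 3 of 880 and 2 of 1925 in the whole libraries. The 10 genes made up 24.5% to 46.5% of UMIs in the 3 barcodes of whole KPC-4545, and 35.5% and 38.4% in the 2 of whole KPC-3403. Only 1 barcode in each whole library passed as a cell, with 14702 UMIs over 798 genes in KPC-4545 and 6026 UMIs over 586 genes in KPC-3403. The other 3 had 1002 to 2407 UMIs over only 178 to 233 genes and were not called as cells.

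None of the 5 barcodes had a UMI of Ptf1a, Rbpjl, Bhlha15, Nr5a2 or Gata4, the acinar transcription factors, which are low-abundance transcripts. All 5 carried Reg2, a Reg family gene of stressed acini, with 30 to 315 UMIs each. Ptprc, the pan-leukocyte marker, was at 0 in all 5, as was Ins2, the beta cell insulin gene. The 2 barcodes that passed as cells had 1 UMI each of Epcam, an epithelial marker. At the lower limit of 5%, 1 barcode of 673 UMIs in enriched KPC-3403 was added, in which 7.73% of UMIs came from the other acinar genes, 7.28% from the 10 genes, and 17 of 49 enzyme UMIs from Cela1. That barcode was in an epithelial or tumour-like cluster and held 4 UMIs of Rbpjl.

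**Figure D3:**
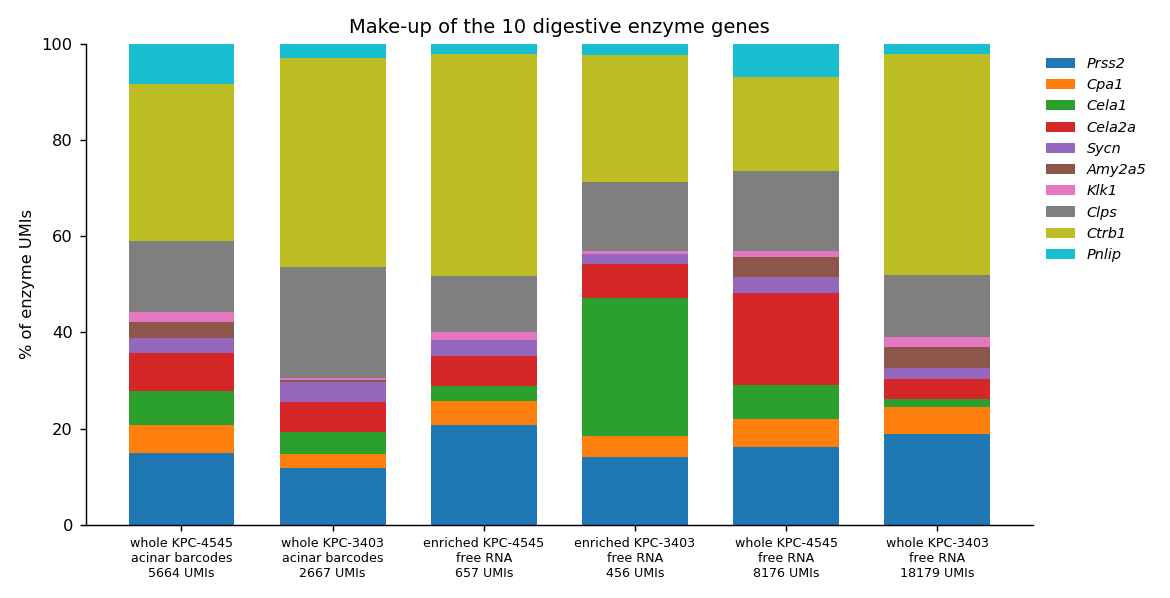
Make-up of the enzyme UMIs, as the percentage of the 10 genes' UMIs from each gene, in the acinar barcodes of the 2 whole libraries and in the free RNA of all 4 libraries, with the number of enzyme UMIs under each bar. Free RNA of enriched KPC-4545 and of whole KPC-3403 have nearly the same make-up, and Cela1 takes 28.7% in enriched KPC-3403.

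The make-up of the enzyme RNA differed between the whole tumours. Ctrb1 took 32.5% of enzyme UMIs in the acinar barcodes and 19.4% in the free RNA of whole KPC-4545. In whole KPC-3403 it took 43.3% in the acinar barcodes and 45.8% in free RNA. Cela2a took 7.82% in acinar barcodes and 19.1% in free RNA of whole KPC-4545, and 6.26% and 4.22% in whole KPC-3403. Amy2a5 took 0.450% of enzyme UMIs in the acinar barcodes of whole KPC-3403, against 4.27% in its free RNA. The acinar make-ups rest largely on 1 barcode each. In whole KPC-3403 it held 2311 enzyme UMIs, 3 of Amy2a5 and 612 of Clps, while the other held 356, with 9 and 5. In whole KPC-4545 it held 3608, against 937 and 1119 in the others. These shares, and the distances below, thus carry differences between single barcodes.

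The share of enzyme UMIs that would have to move between genes to make 2 make-ups equal was 15.4% between acinar barcodes and free RNA of whole KPC-4545 and 17.9% in whole KPC-3403. Between the free RNA of the 2 whole libraries it was 30.3%. Free RNA of enriched KPC-4545 was 31.9% away from that of whole KPC-4545, its own line, and 6.55% away from that of whole KPC-3403. Across the 10 genes, which are not independent replicates, its make-up had a Pearson correlation of 0.991 with whole KPC-3403 and 0.698 with whole KPC-4545. The same enriched library shared 84.2% of its enzyme-bearing free barcodes with whole KPC-3403, and their part in this likeness was not tested.

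The enzyme share of UMIs was lower in called cells than in free RNA of each library, and in the whole libraries most of what the cells held sat in the acinar barcodes. The 10 genes made up 0.00119% and 0.00343% of the UMIs of called cells in the enriched KPC-4545 and KPC-3403 libraries, against 0.111% and 0.0312% in the whole libraries. A single acinar barcode held 3608 of 3728 enzyme UMIs (96.8%) of the called cells of whole KPC-4545, and 2311 of 2853 (81.0%) in whole KPC-3403. Without them the whole libraries came to 0.00359% and 0.00593%. In the enriched libraries the gap to free RNA narrowed once shared barcodes were left out of free RNA, which then stood at 0.00372% in KPC-4545 and 0.00598% in KPC-3403. These values were still above the 0.00119% and 0.00343% of called cells, which include shared barcodes.

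Gene by gene, with acinar barcodes left out, Ctrb1 stood at 1.08 and 1.55 CPM in called cells of enriched KPC-4545 and KPC-3403, against 6.87 and 18.2 in whole KPC-4545 and KPC-3403. Prss2 stood at 1.34 and 0.727, against 5.38 and 10.5. Amy2a5 had 0 and 3 UMIs in the called cells of the 2 enriched libraries, against 1 and 13 in the whole libraries. For Ctrb1 and Prss2 both enriched libraries lay below both whole libraries. Cela1 did not follow this order, with 6.63 and 26.0 CPM in the enriched libraries, against 13.1 and 13.6 in the whole libraries.

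Called cells were tested against free RNA within libraries (edgeR's quasi-likelihood test with library as a term, 11776 genes). The 9 enzyme genes that passed the filter, all but Amy2a5, were fitted lower in cells, by log2 -2.04 (Cela1) to -5.00 (Prss2), and none was called, with adjusted p of 0.269 to 0.477. The same fit called 0.204% of all genes lower and 0.017% higher, and 1148 had an unadjusted p under 0.05. DESeq2 called all 9 lower, against 1.45% of genes. When free RNA was taken instead as barcodes of more than 100 and fewer than 500 UMIs, 9 of 10 members were called lower in cells by edgeR, all but Cela1, against 0.413% of genes. With acinar barcodes left out, the members that missed the threshold ran from log2 -2.82 (Cela1) to -7.31 (Ctrb1). Without shared barcodes, 1 of the 9 tested was called lower, against 0.597% of genes.

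Called cells of the enriched libraries were also tested against those of the whole libraries, with line as a term (15101 genes). All 10 enzyme genes were fitted lower in enriched cells, by log2 -1.69 (Cela1) to -7.85 (Amy2a5), none was called by edgeR (adjusted p 0.069 to 0.549), and 0.172% of genes were called lower and 0% higher. DESeq2 called 9 of the 10, against 8.65% of genes. With acinar barcodes left out, 6 members passed the filter, at log2 -0.00 (Cela1) to -3.13 (Ctrb1), and none was called.

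**Figure D4:**
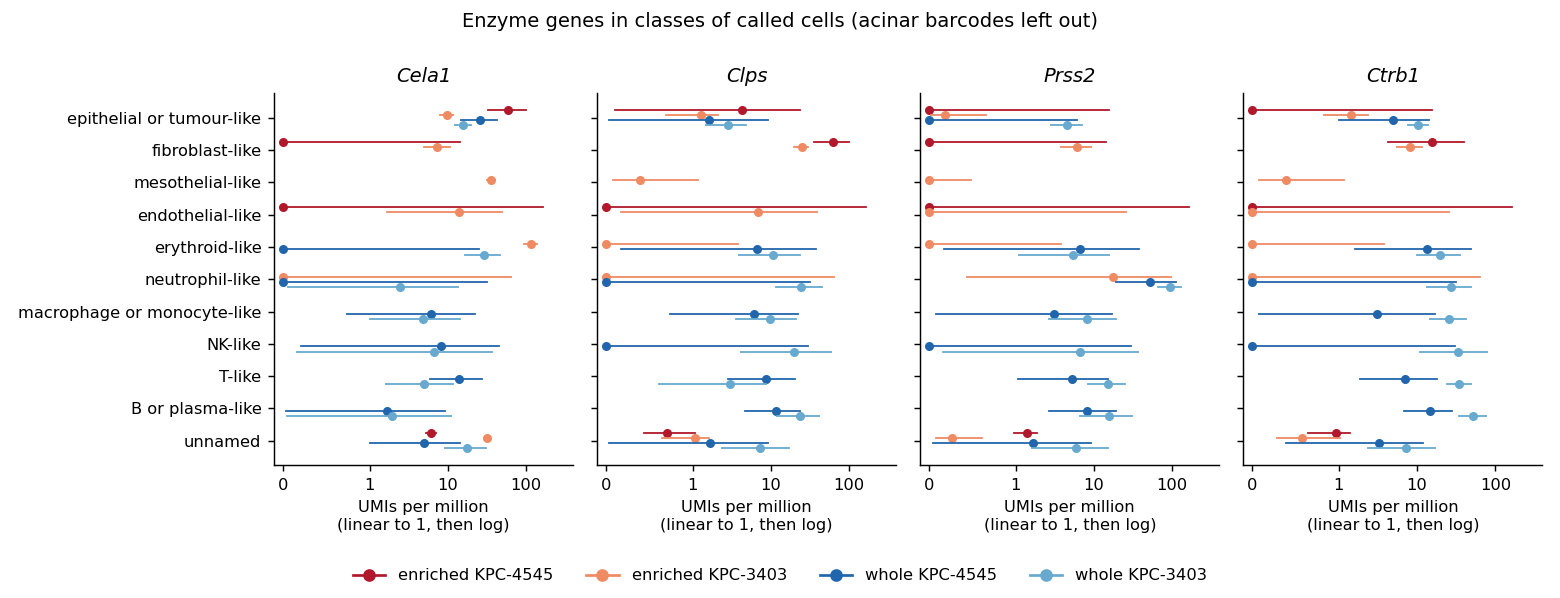
Cela1, Clps, Prss2 and Ctrb1 in classes of called cells with at least 20 cells in a library, in CPM (linear to 1, then log), acinar barcodes left out; points are libraries and bars 95% exact Poisson intervals. Cela1 is highest in erythroid-like cells of enriched KPC-3403 at 114, Clps in fibroblast-like cells, and Prss2 in neutrophil-like cells at 93.0 in whole KPC-3403.

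The residual counts were then set out by class of cell. Classes were found by clustering without any acinar gene, so the enzyme levels did not shape them, and clusters were named from marker genes only. Epithelial or tumour-like cells were compared with all other called cells of the same library (11211 genes), acinar barcodes included. For enriched KPC-4545 this cannot be read as tumour cells against the rest. Its other cells took in unnamed clusters with 570, 307, 336, 148 and 93 of its cells, which scored nearest to epithelial or tumour markers, at low scores. Of its 91 epithelial or tumour-like cells, 84 held more UMIs under the same barcode in another library. Only Cela1, Clps and Ctrb1 passed the filter, with edgeR log2 differences of 0.17 (SE 1.00), -0.95 (SE 1.85) and -0.63 (SE 1.84), and none was called (adjusted p 0.812 to 0.944), against 4.94% of genes called higher and 6.22% lower. The acinar barcode called in whole KPC-3403, with 1012 Ctrb1 and 612 Clps UMIs, lay in the epithelial or tumour-like class, whose other cells there held 48 and 13, and that of whole KPC-4545, with 1212 and 479, lay among unnamed cells. With both left out, an alternative chosen after seeing the data, the log2 differences were 0.58 (SE 0.83), -1.69 (SE 0.59) and -0.95 (SE 0.44) for Cela1, Clps and Ctrb1, and none was called by edgeR (adjusted p 0.122 to 0.726). With acinar barcodes included, Clps and Ctrb1 changed sign with finer clustering, and Cela1 without the shared barcodes.

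In lymphocytes, which do not make these enzymes, a low level was present in the whole libraries. Ctrb1 stood at 34.7 CPM in T-like and 52.4 in B or plasma-like cells of whole KPC-3403, and at 6.91 and 14.8 in whole KPC-4545. Prss2 stood at 14.9 and 15.5 in those classes of whole KPC-3403. Epithelial or tumour-like cells of whole KPC-3403 had less of both, 10.3 of Ctrb1 and 4.52 of Prss2, with a median of 12574.5 UMIs among cells of at least 1000 UMIs, against 4223 in T-like cells.

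With every cell thinned to 1000 UMIs and acinar barcodes left out, 12 of 1313 cells (0.914%) of enriched KPC-4545 and 73 of 2415 (3.02%) of enriched KPC-3403 had a UMI of any of the 10 genes, against 27 of 497 (5.43%) in whole KPC-4545 and 89 of 986 (9.03%) in whole KPC-3403. Unthinned, the shares were 13.5% and 30.2%, against 15.97% and 32.1%. Ctrb1 was seen in 11 of 266 thinned epithelial or tumour-like cells (4.14%) of whole KPC-3403 and in 7 of 204 T-like cells (3.43%), so its share in tumour-like cells was close to that of a class that should lack it.

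Cela1 was the member seen in most cells of the enriched libraries, in 155 of 1509 in KPC-4545 and 655 of 2465 in KPC-3403 (acinar and shared barcodes left out), and in 25 of 525 in whole KPC-4545. In whole KPC-3403 it was seen in 78 of 1087 cells, fewer than Ctrb1 with 146. In enriched KPC-3403 Cela1 gave 1109 of 1464 enzyme UMIs in called cells, and its level of 26.0 CPM was close to the 32.6 of free RNA, whereas the other 9 genes together stood at 8.32 in cells and 80.9 in free RNA. Without shared barcodes the free RNA values were 33.7 for Cela1 and 26.1 for the other 9 genes, which stood at 8.34 in cells. It reached 114 CPM (exact Poisson interval 94.0 to 137) in 46 erythroid-like cells of that library. Of these, 42 formed a cluster with Car1, Car2 and Klf1 among its leading genes, in which 28 cells had a Cela1 UMI and Ctrb1 had none.

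Erythroid-like cells of the same cluster in whole KPC-3403, 23 in number, had 15 Cela1 UMIs, or 61.4 CPM (34.4 to 101.2). Mesothelial-like cells of enriched KPC-3403 had 35.2 CPM (31.1 to 39.7) over 318 cells, and a cluster left unnamed, with Cxcl13, Saa3 and Calca among its leading genes, had 39.4 (36.1 to 42.8) over 811 cells. Fibroblast-like cells of that library had 7.33 (4.87 to 10.6), below both, but the unnamed cluster scored nearest to fibroblasts, and 386 cells with Cxcl13 and Saa3 among their leading genes were named fibroblast-like at resolution 2. The low level thus holds for the cells named fibroblast-like at resolution 1 and not for every cell near to fibroblasts by markers. The 24 erythroid-like cells of whole KPC-4545 had no Cela1 UMI, which allows up to 24.6 CPM at the upper end of the exact interval, and 21 of them lay in other erythroid-like clusters. In whole KPC-3403, 90 cells of an epithelial or tumour-like cluster led by Prap1, Lypd8 and Phgr1 had 31.9 (23.6 to 42.4).

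In classes of the same library, Cela1 and Ctrb1 did not keep the ratio of free RNA. Cela1 was 52.0% of the Cela1 and Ctrb1 UMIs in the free RNA of enriched KPC-3403 and 82.3% without shared barcodes, 98.9% in its mesothelial-like cells, all of 112 in its erythroid-like cells and 47.5% in its fibroblast-like cells. In whole KPC-3403 it was 3.16% in free RNA, 12.5% in T-like cells, 60.3% in epithelial or tumour-like cells and 59.3% in erythroid-like cells, whose exact intervals (51.04 to 69.1 and 38.8 to 77.6) lay above that of T-like cells (4.19 to 26.8). In whole KPC-4545, on few UMIs, it was 26.6% in free RNA, 66.7% (34.9 to 90.1) in T-like cells and 84.2% (60.4 to 96.6) in epithelial or tumour-like cells. Cells of 1 library are not replicates, so these are descriptions of the libraries.

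Clps was concentrated in a small cluster of fibroblast-like cells led by Ccl11, Mmp3 and Ccl19. With shared barcodes left out, 6 of 9 cells of enriched KPC-4545 held 16 Clps UMIs (189 CPM, 108 to 306), and 20 of 45 cells of enriched KPC-3403 held 63 (205 CPM, 158 to 263), up to 14 in 1 cell. Other members were present there too. In enriched KPC-3403 this cluster held 8 Cpa1 UMIs (26.1 CPM, 11.3 to 51.4), 5 of them in 1 cell, 6 of Prss2 (19.6, 7.18 to 42.6), 3 of Cela2a and 3 of Ctrb1 (9.78 each, 2.02 to 28.6) and 2 of Sycn. Cpa1 stood at 0.821 and Ctrb1 at 1.55 over all called cells of that library, so the higher level in this cluster was not particular to Clps. In enriched KPC-4545 it held 3 UMIs each of Ctrb1 and Cela2a. In the larger fibroblast-like cluster of enriched KPC-3403, led by Sfrp4, Pi16 and Dpt, Clps was at 8.83 (6.00 to 12.5), and in mesothelial-like cells of that library it was at 0.396. The 2 enriched libraries, of different lines, thus had a like level in the small cluster, and only 2 cells of it came from the whole libraries.

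The level of Prss2 was highest in neutrophil-like cells. In the main neutrophil-like cluster of whole KPC-3403, 13 of 116 cells held 38 Prss2 UMIs (153 CPM, 108 to 210), with 14 in 1 cell, and in whole KPC-4545 4 of 23 cells held 6 (105 CPM, 38.4 to 228). Prss2 was 80.9% (66.7 to 90.9) of the Prss2 and Ctrb1 UMIs in that cluster of whole KPC-3403, against 29.2% in free RNA and 30.0% (17.9 to 44.6) in T-like cells. Neutrophil-like cells of enriched KPC-3403 had 1 Prss2 UMI in 22 cells, which is no measure of a level.

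Klk1 outside acinar barcodes came largely from 1 cell. Of 32 Klk1 UMIs in the called cells of whole KPC-3403, 22 sat in a single macrophage or monocyte-like cell. Cpa1, Cela2a, Sycn, Amy2a5 and Pnlip had at most 54 UMIs in the called cells of any library without acinar barcodes, and no cell with more than 9 of any of them. For these 5 genes no further classes were compared, beyond the values of Cpa1, Cela2a and Sycn in the small fibroblast-like cluster.

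The other acinar lists were read beside the 10 members. Of 30 other acinar secretory genes found, 22 passed the filter in the free RNA fit and 13 of them were called lower in enriched libraries by edgeR, with a median log2 of -5.20, while the median over all genes was -0.01. Try4 (log2 -5.82, adjusted p = 0.027) and 2210010C04Rik (-5.22, 0.021), trypsinogen-family genes, were called, and Try5 (-5.05, 0.400) was not. Reg1, a secreted acinar lectin, was not called either (-4.21, 0.295). Reg1 also stood at 171 CPM in called cells of whole KPC-3403 without the acinar barcode, against 1254 in its free RNA, so it was not confined to free RNA and acinar barcodes.

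None of the 5 Reg genes tested in free RNA, of Reg2 and the Reg3 family, was called by edgeR, with log2 -2.70 for Reg3g and -4.49 for Reg3b. DESeq2 called 2 of the 5 lower, against 2.09% of all genes. The 5 acinar transcription factors were too low to be tested in free RNA, with 3 and 10 UMIs in all in the enriched KPC-4545 and KPC-3403 libraries, against 13 and 16 in the whole libraries. Endocrine genes, 9 in number, gave 0 and 6 free UMIs in the enriched libraries, against 4 and 10 in the whole libraries, so islet RNA was near 0 where acinar RNA was abundant. In bulk sums of this kind, fewer acinar cells and less enzyme RNA per cell cannot be told apart.

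Over the 8 sums of free RNA and called cells (acinar barcodes included), the level of each member was compared with that of the other 9 on a log2(CPM + 1) scale. The Pearson correlation was lowest for Cela1 (0.830) and Amy2a5 (0.853) and 0.955 to 0.992 for the other 8. Of 10364 genes outside the acinar lists with a mean of at least 5 CPM in free RNA, those most like the summed members included Xpc (0.958), Tent5c (0.953), Tasor (0.945), Zfand6 (0.944), Tnik (0.943), Isg20 (0.943), Fech (0.940), Kif15 (0.940) and Ighv1-9 (0.937). These 8 sums share libraries and depth and are not independent samples, so the correlations describe them only.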

How the data were processed

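Unique molecular identifier (UMI) counts per gene and barcode, deposited by the authors as unfiltered matrices of 4 libraries made with 5′ droplet kits, were used as deposited. Cell Ranger 6.1.1 and build mm10 are named in the submitters' processing notes, and the file headers name version 4 of that software's format. Called cells had at least 500 UMIs and 250 genes, at most 20% mitochondrial UMIs, and below 5000 UMIs had to differ from free RNA (false discovery rate 0.01). The cells with the highest Scrublet doublet scores were removed, at an expected 0.8% for each 1000 cells (2 to 51 per library). Cells were clustered with scanpy 1.11.5 and Leiden (leidenalg 0.10.2) at resolution 1 without the acinar secretory and Reg genes. Clusters were named from markers and depth by a rule set after the clusters had been seen. UMIs were summed per library and tested with edgeR 4.0.16 (TMM, quasi-likelihood, R 4.3.3), with DESeq2 1.42.0 as an alternative. Acinar barcodes had at least 500 UMIs and 10% from 30 other acinar genes. Depth ran from 5746733 to 51450719 UMIs per library. The enriched and whole libraries were paired by cell line, which is a term of the model (correlation of deviations 0.251 over 15146 genes).

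The members and lists were chosen with earlier results of these data known. The named genes were the 10 members, the leading genes of each other list by mean level in free RNA, and the 10 genes most like the summed members, of which 1 is not reported here. On simulated data for enriched against whole free RNA, 83.8% of genes changed by 2 on the log2 scale and 100% of those changed by 4 were recovered, over 9983 genes. The simulation gave all genes the same fixed dispersion, and unchanged genes the same level in every library. Real genes can scatter more, as Ctrb1 did (log2 -4.52, SE 1.57, not called). These shares therefore do not measure what the real fit can find.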

Additional observations from a re-analysis of the deposited data

Results flagged for a closer look

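Cela1 differed between the lines in its contrast of called cells: enriched minus whole was -63.9 CPM in KPC-4545 and 0.189 in KPC-3403, and with acinar barcodes left out -6.51 in KPC-4545 and 12.4 in KPC-3403. There is 1 library of each line and preparation, and the difference between the lines was not tested.

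Barcodes of more than 100 and fewer than 500 UMIs, which belong neither to called cells nor to free RNA as used above, also held enzyme UMIs. There were 62287 and 21035 of them in the enriched KPC-4545 and KPC-3403 libraries, against 1025 and 1114 in the whole libraries. The 10 genes made up 0.00337% and 0.00874% of the UMIs of these barcodes in the enriched KPC-4545 and KPC-3403 libraries, against 0.227% and 0.240% in the whole libraries.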

How the results depend on the processing

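Depth limits the 4 libraries unequally, and with 2 libraries of each preparation 1 library can decide a count. Alternatives that leave out shared barcodes or take free RNA as barcodes above 100 and below 500 UMIs (mid-sized barcodes) were chosen after seeing the data. The causes of the changes below were not tested. Of the 142 values of single members in called cells against free RNA, 120 kept their direction and their side of the threshold and 22 passed it; of the 120 in enriched against whole free RNA, 70 kept both, 21 passed it and 29 no longer did. In called cells, enriched against whole, 107 of 126 kept both and 19 passed. Members were lower in each of these.

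Called cells against free RNA gave 26 genes called, and 95 without a filter on low counts, 230 with DESeq2, 0 with no replicate block, 180 and 63 with free RNA of at most 10 and 50 UMIs, 113 without shared barcodes, 58 in mid-sized barcodes, and 6 to 58 leaving out 1 library. Enriched against whole free RNA gave 162, and 67 with RLE size factors, 605 without a filter, 0 with no replicate block, 16 and 438 at 10 and 50 UMIs, 424 without shared barcodes, 81 in mid-sized barcodes, and 2 to 1904 leaving out 1 library. Enriched against whole called cells gave 26, and 0 with RLE, no replicate block, cells of at least 1000 UMIs, no test against free RNA or no shared barcodes, 710 without a filter, 1604 with DESeq2, 48 without the mitochondrial limit, and 0 to 2812 leaving out 1 library. KPC-4545 against KPC-3403 gave 0, and 50 without a filter, 4 with DESeq2, 9 at 50 UMIs, and 0 to 290 leaving out 1 library. Epithelial or tumour-like against other cells gave 1251, and 3103 without a filter, 1999 with DESeq2, 764 at Leiden resolution 2, and 695 to 1755 leaving out 1 library.

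The line difference turned in mid-sized barcodes to log2 -0.29 (Prss2), -0.034 (Cpa1), -0.82 (Cela1), -0.32 (Sycn), -0.82 (Amy2a5), -1.32 (Klk1), -1.11 (Clps), -0.77 (Ctrb1) and -0.53 (Pnlip), and without shared barcodes to -0.24 for Klk1. With 1 library left out, the preparation term of this fit (and the line term of the fits of enriched against whole libraries) had to be dropped, so line is then confounded with preparation, and the ranges carry the gap between enriched and whole libraries and say nothing of the stability of the line difference: -2.15 to 5.66 (Prss2), -2.44 to 5.82 (Cpa1), -1.53 to 3.33 (Cela1), -1.73 to 6.78 (Cela2a), -1.85 to 6.05 (Sycn), -11.60 to 11.45 (Amy2a5), -2.43 to 6.30 (Klk1), -2.45 to 5.62 (Clps), -2.26 to 5.12 (Ctrb1) and -2.27 to 6.98 (Pnlip). In epithelial or tumour-like cells Cela1 turned to -0.22 with no replicate block and -0.77 without shared barcodes, and at resolution 2 Clps and Ctrb1 turned to 4.52. Leaving out 1 library, these ran from -0.76 to 1.06 (Cela1), -3.15 to 1.18 (Clps) and -3.14 to 1.35 (Ctrb1).

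The enzyme share of free RNA with at most 10 UMIs, at most 50 UMIs, no shared barcodes, mid-sized barcodes and barcodes absent elsewhere was 0.1496%, 0.119%, 0.00372%, 0.00337% and 0.00194% in enriched KPC-4545, 0.0530%, 0.0384%, 0.00598%, 0.00874% and 0.00625% in enriched KPC-3403, 0.812%, 0.905%, 1.07%, 0.227% and 0.967% in whole KPC-4545, and 0.2505%, 0.765%, 0.788%, 0.240% and 0.797% in whole KPC-3403. The share in called cells of whole KPC-4545 was 0.115% in cells of at least 1000 UMIs, and without acinar barcodes 0.00359% there and 0.00593% in whole KPC-3403. At 5%, enriched KPC-3403 had 1 acinar barcode. The share of cells with a member UMI thinned to 2000 was 2.92% and 5.63% in the enriched libraries, against 14.0% in whole KPC-3403, and not thinned 13.5% and 30.2%, against 15.97% and 32.1%.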
